A study of Mus musculus with 5 samples.

Results

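The 9 genes described here move glucose across the renal proximal tubule or make it there, and they were the rows of the count tables with the symbols *Slc5a2*, *Slc5a1*, *Slc2a2*, *Slc2a1*, *Pcx*, *Pck1*, *Fbp1*, *Slc37a4* and *G6pc*, out of 24421 gene symbols. All 9 passed the filter on low counts and were tested. RNAseq had been performed on cortical kidney tissue of 3 *Fnip1* null (*Fnip1*-/-) mice, numbered 8637, 9210 and 9121, and 2 wildtype (*Fnip1*+/+) mice, numbered 9055 and 9056, all on the C57BL6J background and with 1 library per mouse. The *Fnip1* null allele came from ENU chemical mutagenesis and is carried by every cell of the animal, and no treatment is named for either group. The labels give neither sex nor age, and age is known from the study as a range for both genotypes together. The study's text calls the RNAseq controls heterozygous (*Fnip1*+/-) in several places and wildtype in others, and its figure legend gives 3 wildtype mice. The labels, with 2 wildtype mice, were followed here. The question put to these genes was whether their mRNA differed between *Fnip1* null and wildtype kidney. *Fnip1* encodes a partner of Folliculin, the protein lost in Birt-Hogg-Dube syndrome.

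In the kidney, filtered glucose is taken up from the tubule lumen by sodium-coupled transporters: SGLT2 (*Slc5a2*) in the early proximal tubule and SGLT1 (*Slc5a1*) further down. It leaves the cell on the blood side through the facilitative transporters GLUT2 (*Slc2a2*) and GLUT1 (*Slc2a1*). The proximal tubule also makes glucose from lactate, glutamine and glycerol, a pathway that the kidney shares with the liver. Pyruvate carboxylase (*Pcx*), phosphoenolpyruvate carboxykinase (*Pck1*), fructose-1,6-bisphosphatase (*Fbp1*) and glucose-6-phosphatase (*G6pc*) catalyse its irreversible steps, and *Slc37a4* carries glucose-6-phosphate to the last of them.

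The promoters of *Pck1* and *G6pc* are shown because hormonal control of gluconeogenesis is best known from these genes and because their fold changes had the widest intervals of the 9 genes in the values that follow. Both sequences are from RefSeq (GRCm38.p6), 5′ to 3′ on the gene strand, and end before the first base that either RefSeq or GENCODE M21 annotates as transcribed. The *Pck1* window is chr2:173152823-173153047, plus strand, and the *G6pc* window is chr11:101367466-101367560, plus strand. Capitals mark the cAMP response element half-site ACGTCA, searched on both strands.
Pck1: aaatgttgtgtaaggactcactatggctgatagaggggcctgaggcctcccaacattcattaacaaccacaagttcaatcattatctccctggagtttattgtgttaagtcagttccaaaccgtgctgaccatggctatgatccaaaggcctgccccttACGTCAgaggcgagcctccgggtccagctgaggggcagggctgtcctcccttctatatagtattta
G6pc: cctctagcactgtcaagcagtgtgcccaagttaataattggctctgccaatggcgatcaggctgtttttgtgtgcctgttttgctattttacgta

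The *Pck1* match lies at -91 to -86 from the RefSeq start site, and these letters are not in the *G6pc* window. Both strands of the 250 bases before each of 32851 RefSeq starts were searched, and 6.47% held the cAMP response element half-site. The RefSeq promoter table matched 8 of the 9 genes, with 11 start sites, and the gene it did not match was *Slc5a2*. The motif search also covered the FOXO sequence TGTTTAC, which 3.17% of promoters held and no promoter of the 8 genes did, and the E-box CACGTG, held by 6.02% and found in a promoter of *Slc5a1* and of *Pcx*. The cAMP response element half-site was also found before 2 of the 3 starts of *Slc37a4*. Both matches are the same genomic site, which lies within the gene as GENCODE M21 annotates it. Overlaps between different motifs were allowed. Only these exact letters were searched, so a site with other letters would be missed in any of the promoters, that of *G6pc* included. A match of letters is a description of the sequence, and binding was not measured.

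The libraries held 15799114 to 19132145 counts on genes, and every one of the 9 genes had between 821 and 67238 counts in each mouse, so depth was not what limited their comparison. *Fnip1*, the targeted gene, measured 21, 16.9 and 16 normalized CPM (counts per 1000000 counts on genes, scaled with the TMM factors of edgeR) in *Fnip1* null mice 8637, 9210 and 9121. It measured 51.8 and 48.7 CPM in wildtype mice 9055 and 9056. It fell, with a log2 fold change of -1.48 (SE 0.138, adjusted p = 0.033, quasi-likelihood test of edgeR), in the direction of the labels, and its adjusted p in that test was 0.122, 0.216 and 0.508 without mouse 9210, 9055 or 9056. The library of *Fnip1* null mouse 9121 stood apart: it had 5954 counts of *Xist*, transcribed from the inactive X chromosome, where the other 4 mice had 3 to 24, and 0 to 7 counts of each of 4 Y-linked genes that had 291 to 885 in the others. By these counts mouse 9121 reads as female and the other 4 as male, though the labels give no sex. Sex is then not balanced between the genotypes, and its part in the differences was not tested. The fold changes of the 9 genes are therefore also given without mouse 9121. List medians and summed marker CPM include it. The tissue had the markers of cortex, with *Slc34a1* at 3963 to 6346 CPM and *Lrp2* at 1379.8 to 2552 CPM in every mouse. Each value is an average over all cells of the tissue, so fewer cells of a type and less RNA per cell cannot be told apart.

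None of the 9 genes passed the test between the genotypes, set at a false discovery rate (FDR) of 5% with a 2-fold change in the quasi-likelihood test of edgeR. Of all 13874 genes tested, 0.526% passed this rule. The count among the 9 was also 0 with the FDR alone (0.678% of all genes), at an unadjusted p under 0.05 (25.1% of all genes), and with the exact test of edgeR, its likelihood ratio test and DESeq2 under the same rule (4.11%, 4.53% and 3.51% of all genes). It stayed 0 with an FDR of 10% (2.57% of all genes), the legacy quasi-likelihood fit (0.533%), RLE factors (0.526%), library size only (0.613%), no filter beyond 1 count (0.499%) and a filter at 1 CPM in 2 mice (0.6%). Leaving out mouse 8637 or mouse 9121 also gave 0 of the 9, against 6.82% and 0.973% of all genes, and leaving out any of the other 3 mice gave 0% of all genes. Log2 fold changes ran from -0.39 for *Pcx* to 0.29 for *Slc2a1*, with a median of -0.11 against 0 over all genes tested. The 95% interval of the fold change held no change for all 9 genes, and for 8 of them it lay within 2-fold in either direction. The exception was *Pck1*, whose interval reached down to 0.497-fold. Adjusted p-values were between 0.27 and 0.872 in the quasi-likelihood test. *Fnip1* null mice all lay on 1 side of both wildtype mice for 1 of the 9 genes, *Slc5a2*, while 45.9% of all genes tested did so in either direction. With library size only the number was 2 of 9, *Slc2a2* being the other, against 48.6% of all genes.

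**Figure D1:**
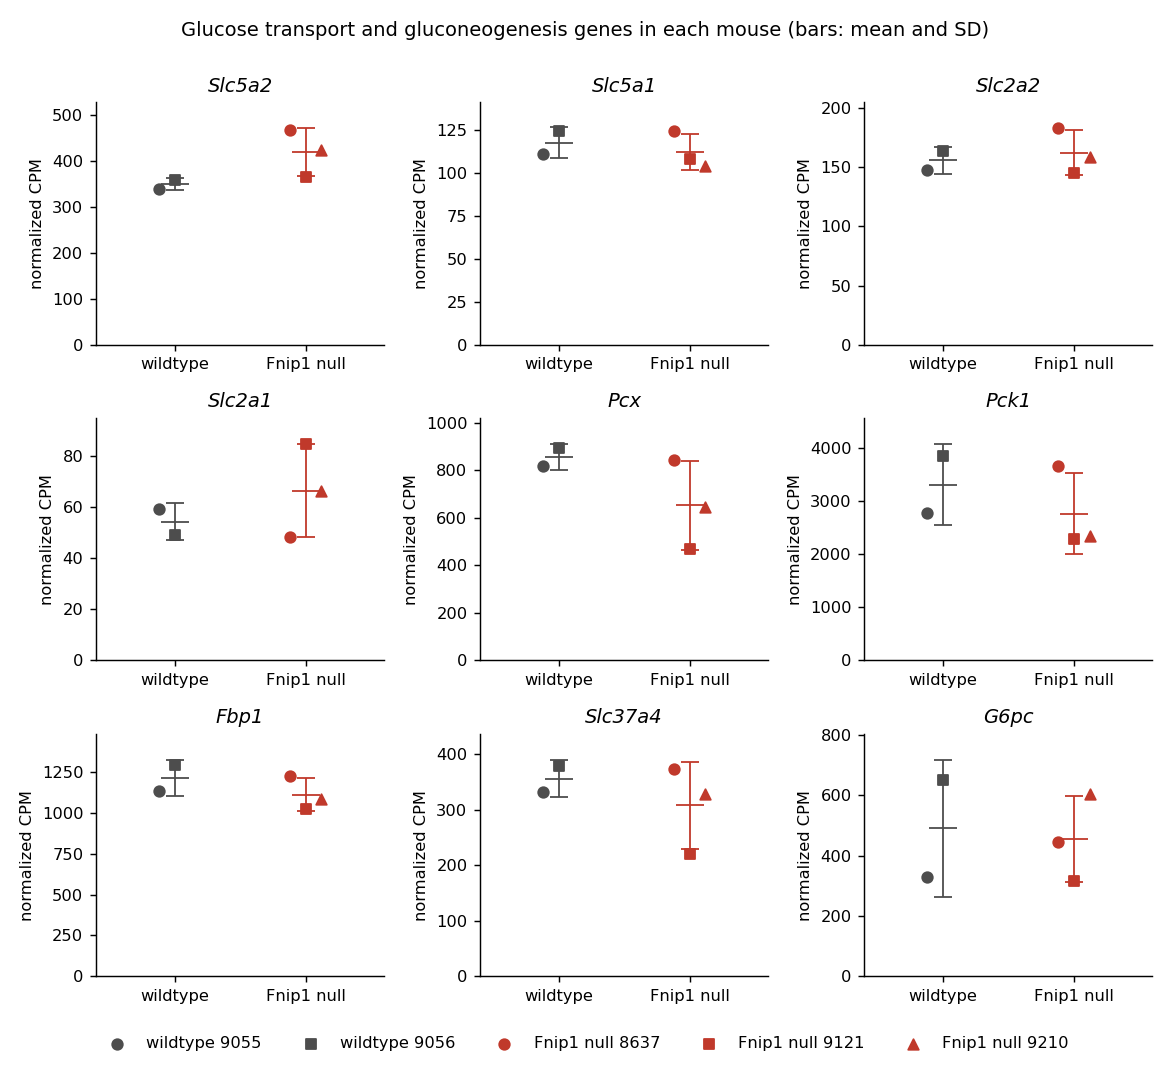
Normalized CPM (vertical axis, starting at 0) of the 9 genes in each wildtype mouse (grey) and each *Fnip1* null mouse (red), with symbols for single mice and bars for the mean and SD of each group. Only in the *Slc5a2* panel do all 3 *Fnip1* null mice (365 to 469) sit above both wildtype mice (340.3 and 359), and the 2 wildtype mice lie farthest apart, in proportion, in the *G6pc* panel (331 and 652).

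*Slc5a2* (ENSMUSG00000030781, chromosome 7 from 128265657 to 128272430, plus strand, GRCm38) takes up the bulk of filtered glucose. It measured 469, 425 and 365 normalized CPM in *Fnip1* null mice 8637, 9210 and 9121, against 340.3 and 359 in wildtype mice 9055 and 9056. The 3 *Fnip1* null mice were above both wildtype mice, though mouse 9121 by only a few CPM, and 22.9% of all genes tested showed the same arrangement. The means were 419.7 ± 52.3 (SD, n = 3) and 349.9 ± 13.5 (SD, n = 2), and the log2 fold change was 0.26 (SE 0.133, 95% interval -0.06 to 0.58, adjusted p = 0.27, quasi-likelihood test). The difference was not distinguishable from the spread between mice. Without mouse 9121 it was 0.35 (adjusted p = 0.185, quasi-likelihood test). *Pdzk1ip1*, which encodes the small membrane partner that SGLT2 needs for its activity, measured 618, 626 and 559 CPM in *Fnip1* null mice against 504 and 569 in wildtype mice. Its groups overlapped, and its log2 fold change was 0.16 (adjusted p = 0.432, quasi-likelihood test).

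*Slc5a1* (ENSMUSG00000011034, chromosome 5 from 33104219 to 33162870, plus strand) recovers the glucose that escapes SGLT2. Its values were 124, 104 and 108 CPM in *Fnip1* null mice 8637, 9210 and 9121, against 111 and 124 in wildtype mice 9055 and 9056. The groups overlapped, and of the 9 genes it had the narrowest interval, -0.34 to 0.19 around a log2 fold change of -0.07 (adjusted p = 0.705, quasi-likelihood test). It was -0.05 without mouse 9121 and 0.09 when libraries were scaled by size only. *Slc2a2* (ENSMUSG00000027690, chromosome 3 from 28697903 to 28731359, plus strand), the low-affinity exit route, measured 183, 159 and 145 CPM in *Fnip1* null mice against 148 and 164 in wildtype mice. *Fnip1* null mice held both the highest and the lowest value, and the log2 fold change was 0.06 (95% interval -0.24 to 0.35, adjusted p = 0.793, quasi-likelihood test) and 0.13 without mouse 9121.

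*Slc2a1* (ENSMUSG00000028645, chromosome 4 from 119108711 to 119137983, plus strand) encodes GLUT1, which is also found on vessels and along the distal nephron. It was the least abundant of the 9 genes, with 48.4, 66.6 and 84.7 CPM in *Fnip1* null mice 8637, 9210 and 9121, against 59.5 and 49.3 in wildtype mice 9055 and 9056. Mice 9210 and 9121 were above both wildtype mice and mouse 8637 was below them, and the log2 fold change was 0.29 (SE 0.232, 95% interval -0.27 to 0.85, adjusted p = 0.463, quasi-likelihood test). Mouse 9121 carried much of it: the log2 fold change was 0.08 without that mouse (adjusted p = 0.844) and 0.48 without mouse 8637 (adjusted p = 0.0718, both in the quasi-likelihood test). In the same order of mice, the summed CPM of 5 endothelial markers was 247, 292 and 334 in *Fnip1* null mice against 230.4 and 142 in wildtype mice, with none of the 5 at 0. The summed CPM of 10 markers of the loop of Henle and distal nephron was 8564, 8956 and 12251 against 8877 and 8038, mostly from *Umod*. Of these 10 markers, 9 had a positive log2 fold change (median 0.35), and 6 were above both wildtype mice in all *Fnip1* null mice, against 22.9% of all genes. Of 6 erythroid markers 2 passed the filter, *Alas2* and *Slc4a1*, with summed CPM of 122, 155 and 184 against 88.3 and 68.2, and the globin genes did not. *Slc4a1* is also an intercalated cell gene. The part of these cells in the *Slc2a1* values was not tested.

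*Pcx* (ENSMUSG00000024892, chromosome 19 from 4510472 to 4621752, plus strand) starts gluconeogenesis from pyruvate in the mitochondrion. It measured 842, 645 and 471 CPM in *Fnip1* null mice 8637, 9210 and 9121, against 818 and 895 in wildtype mice 9055 and 9056. Mouse 8637 lay between the wildtype mice, while mice 9210 and 9121 were below both. The means were 652 ± 185 (SD, n = 3) and 856 ± 54.6 (SD, n = 2), and *Pcx* had the largest decrease in log2 fold change of the 9, -0.39 (SE 0.241, 95% interval -0.97 to 0.19, adjusted p = 0.349, quasi-likelihood test). Leaving out mouse 8637 gave -0.62 and the lowest adjusted p of any of the 9 genes in any setting, 0.0535 (quasi-likelihood test). Leaving out mouse 9121 gave -0.20 (adjusted p = 0.587, quasi-likelihood test), so the size of this difference rested on which *Fnip1* null mouse was kept.

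*Pck1* (ENSMUSG00000027513, chromosome 2 from 173153048 to 173159273, plus strand), which encodes the cytosolic enzyme that turns oxaloacetate into phosphoenolpyruvate, was the most abundant of the 9 genes. Its values were 3649, 2346 and 2292 CPM in *Fnip1* null mice 8637, 9210 and 9121, against 2768 and 3846 in wildtype mice 9055 and 9056. Mice 9210 and 9121 were below both wildtype mice, and mouse 8637 was close to the higher of them. The log2 fold change was -0.26 (SE 0.31, 95% interval -1.01 to 0.49, adjusted p = 0.629, quasi-likelihood test), and it was -0.14 without mouse 9121 and -0.51 without mouse 8637. Without wildtype mouse 9056 or 9055 it was -0.01 or -0.48. *Pck2*, the mitochondrial form, measured 22.3, 28.1 and 27.7 CPM in *Fnip1* null mice against 18.6 and 20.5 in wildtype mice. All 3 *Fnip1* null mice were above both wildtype mice in *Pck2*, with a log2 fold change of 0.41 (adjusted p = 0.151, quasi-likelihood test).

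*Fbp1* (ENSMUSG00000069805, chromosome 13 from 62864753 to 62888282, minus strand), which removes a phosphate from fructose-1,6-bisphosphate, measured 1223, 1082 and 1025 CPM in *Fnip1* null mice 8637, 9210 and 9121. Wildtype mice 9055 and 9056 had 1135 and 1290.4, so the groups overlapped. Its log2 fold change was -0.13 (95% interval -0.51 to 0.25, adjusted p = 0.637, quasi-likelihood test), -0.07 without mouse 9121 and 0.03 with library size only.

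The last step of gluconeogenesis takes place inside the endoplasmic reticulum. *Slc37a4* (ENSMUSG00000032114, chromosome 9 from 44396852 to 44402968, plus strand), the carrier of glucose-6-phosphate into it, measured 374, 329 and 221 CPM in *Fnip1* null mice 8637, 9210 and 9121, against 332 and 379.6 in wildtype mice 9055 and 9056. Mouse 9121 was far below the other 4 mice, which lay close together. The log2 fold change of -0.21 (SE 0.221, 95% interval -0.74 to 0.33, adjusted p = 0.582, quasi-likelihood test) was -0.02 without mouse 9121, -0.37 without mouse 8637 and -0.31 without wildtype mouse 9055. *G6pc* (ENSMUSG00000078650, chromosome 11 from 101367561 to 101377903, plus strand), which encodes the phosphatase that releases free glucose, had 446, 604 and 317 CPM in *Fnip1* null mice against 331 and 652 in wildtype mice. The wildtype mice held the highest value and nearly the lowest, and the wildtype mean of 491 had an SD of 227. Its log2 fold change of -0.11 (SE 0.355, 95% interval -0.97 to 0.75, adjusted p = 0.872, quasi-likelihood test) was 0.46 without wildtype mouse 9056, -0.52 without wildtype mouse 9055, 0.10 without mouse 9121 and 0.06 with library size only. *G6pc3*, a glucose-6-phosphatase found in most tissues, measured 48.7, 46.0 and 50.1 CPM in *Fnip1* null mice against 53.1 and 60.6 in wildtype mice, a log2 fold change of -0.24 (adjusted p = 0.202, quasi-likelihood test).

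**Figure D2:**
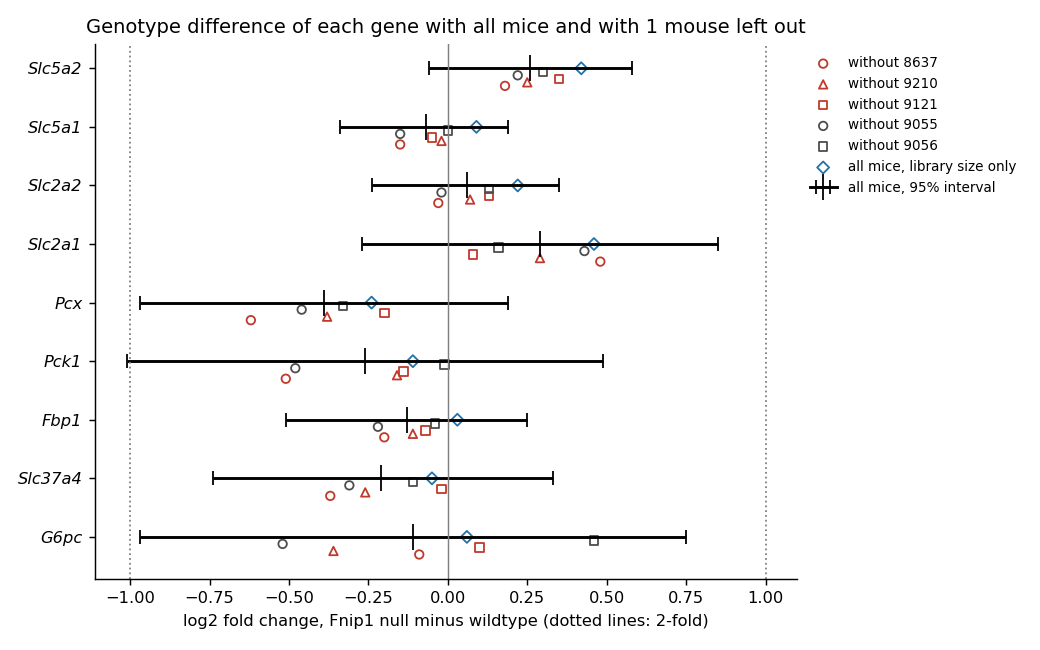
Log2 fold change of each of the 9 genes, *Fnip1* null minus wildtype (horizontal axis), in the quasi-likelihood fit with all mice (black, with its 95% interval), with each mouse left out (open symbols) and with library size only (blue diamonds). All 9 intervals cross 0, and values without a single mouse stay between -0.62 (*Pcx* without mouse 8637) and 0.48 (*Slc2a1* without mouse 8637), with sign changes for *Slc5a1*, *Slc2a2*, *Fbp1* and *G6pc* among the settings plotted.

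*Fnip1* null mouse 9121 was the lowest of the 5 mice for 6 of the 9 genes (*Slc2a2*, *Pcx*, *Pck1*, *Fbp1*, *Slc37a4* and *G6pc*) and the highest for *Slc2a1*, while it was the lowest for 27.9% of all genes tested. Wildtype mouse 9056 was the highest for 6 of the 9, against 27.4% of all genes. The adipose tissue that surrounds the kidney also expresses *Pck1* and *Pcx*. Summed CPM of 5 adipocyte markers that passed the filter, out of 7, was 54.1, 348 and 163 in *Fnip1* null mice 8637, 9210 and 9121, against 36.3 and 36.0 in wildtype mice 9055 and 9056. *Adipoq*, which defines adipocytes, was at 0.589, 22.1 and 8.98 CPM against 0.497 and 1.32. *Pck1* and *Pcx* were lowest in the 2 mice with the highest sums, 9210 and 9121. The part of adipose tissue in their values was not tested. Of 7 hepatocyte markers 5 passed the filter, and *Alb* was at 8.88 to 16.1 CPM in every mouse. Their summed CPM of 1752, 558 and 133 against 2121 and 2524 was mostly *Cyp2e1* (103 to 2472), which the proximal tubule also expresses.

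Scaled to exon length (CPM per kilobase of GENCODE M21 basic exons), levels of different genes were compared within each mouse. *Pck1* led with a median of 1040.4 over the 5 mice (range 861 to 1445), followed by *Fbp1* at 767 (693 to 872). Although their ranges overlapped, *Pck1* was above *Fbp1* in each of the 5 mice. *Pcx* (median 193), *G6pc* (185) and *Slc5a2* (160.3) formed a second tier whose ranges overlapped, and *Pcx* was above *G6pc* in only 2 of 5 mice. *Slc37a4* came next by median (126, range 83.7 to 144), within the reach of the lowest *Pcx* and *G6pc* values but under the lowest *Slc5a2* value, 149. *Slc2a2* (28.5) and *Slc5a1* (27.1) could not be ordered, with the first above the second in 2 of 5 mice, and *Slc2a1* came last at 18.3 (14.8 to 26), below *Slc5a1* in each of the 5 mice. SGLT2 mRNA was thus well above SGLT1 mRNA per length in every mouse.

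Ratios of paired genes within a library do not depend on the scaling between libraries. The ratio of *Slc5a2* to *Slc5a1* counts was 3.80, 4.10 and 3.39 in *Fnip1* null mice 8637, 9210 and 9121, against 3.06 and 2.90 in wildtype mice 9055 and 9056. All 3 *Fnip1* null mice were above both wildtype mice, by a mean of 0.33 on the log2 scale (two-sided exact permutation test, p = 0.2, adjusted p = 0.45 over 6 ratios), and by 0.40 without mouse 9121. With 3 mice against 2 this test cannot give a p below 0.1, so it could not reach 0.05 for any ratio. The ratio of *Pcx* to *Pklr*, the pyruvate kinase that runs the opposite way, was 17.6, 14.2 and 9.52 in *Fnip1* null mice against 21.2 and 19.4 in wildtype mice. Each *Fnip1* null mouse was below the wildtype pair, with a log2 difference of -0.60 (exact permutation p = 0.2, adjusted p = 0.45) and of -0.36 without mouse 9121. The ratio of *Pck1* to *Pck2* was 163, 83.6 and 82.7 in *Fnip1* null mice against 149 and 187 in wildtype mice, and mouse 8637 lay within the wildtype range (log2 difference -0.68, exact permutation p = 0.3, adjusted p = 0.45). *Fbp1* to *Pfkl* (-0.34, exact permutation p = 0.3), *Slc2a2* to *Slc2a1* (-0.21, p = 0.7) and *G6pc* to *G6pc3* (0.16, p = 0.7) overlapped between the groups. Among single genes, 45.9% of all tested did not overlap in either direction. The share over ratios of other gene pairs was not computed.

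**Figure D3:**
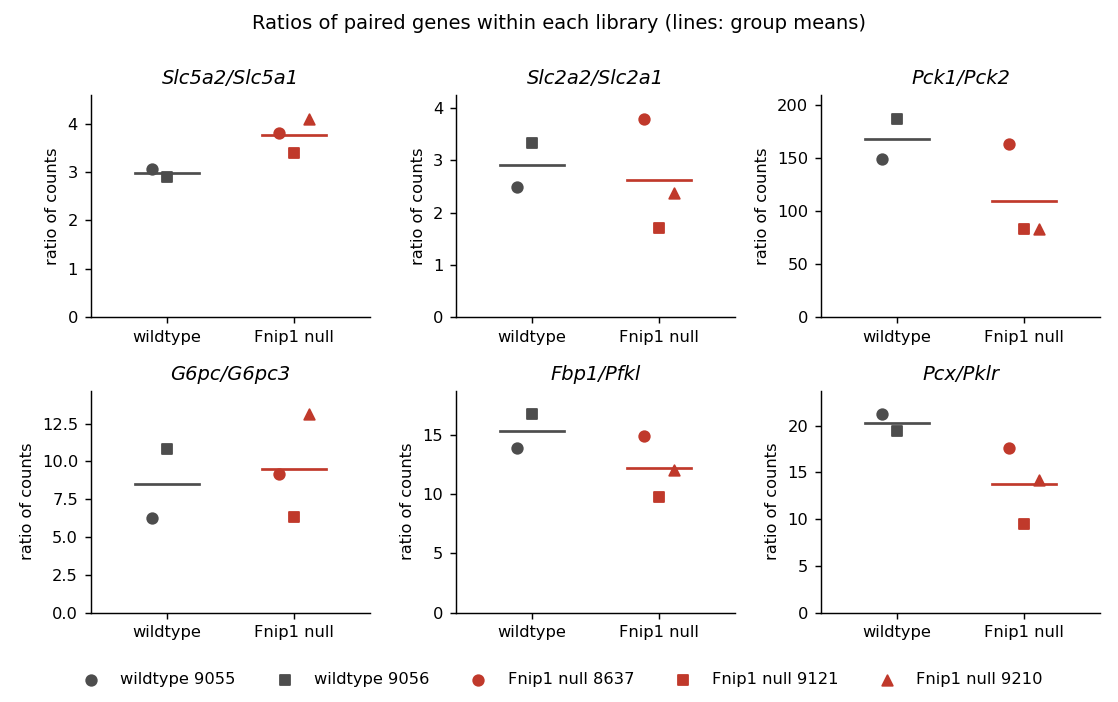
Ratio of the counts of 2 genes in the same library (vertical axis, starting at 0) for 6 gene pairs in each wildtype mouse (grey) and *Fnip1* null mouse (red), with lines for the group means. The groups do not overlap for *Slc5a2*/*Slc5a1* (2.90 and 3.06 against 3.39 to 4.10) and *Pcx*/*Pklr* (19.4 and 21.2 against 9.52 to 17.6), and they overlap for the other 4 pairs. Among single genes, 45.9% of all tested did not overlap in either direction.

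The wider pathway was described with 4 lists: other sugar transporters, gluconeogenic partners (enzymes, substrate carriers and shuttles), the opposing glycolytic steps, and regulators. The list of opposing glycolytic steps also holds kinases of pyruvate dehydrogenase. In the quasi-likelihood test of edgeR, 0 of the 84 genes tested in these lists passed the FDR of 5% with a 2-fold change, where 0.526% of all genes did, and 25 of the 84 had an unadjusted p under 0.05, against 25.1% of all genes. The exact test and the likelihood ratio test of edgeR called 2 of them, *Slc5a8* and *Hk2*, and DESeq2 called 1, *Slc5a8*, where these tests called 4.11%, 4.53% and 3.51% of all genes. *Hk2*, a hexokinase below 1.5 CPM in every mouse, fell outside the rule for naming genes and is named after its values were seen.

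Of 15 other sugar transporters, 12 were tested, and the median log2 fold change was 0.19, or 0.35 with library size only, which moved the median of all genes to 0.17. All 3 *Fnip1* null mice were above both wildtype mice for 3 of them and below for 0, against 22.9% and 23% of all genes. *Slc2a4*, the insulin-responsive GLUT4, measured 50.5, 69.6 and 64.9 CPM in *Fnip1* null mice 8637, 9210 and 9121, against 38.8 and 41.5 in wildtype mice 9055 and 9056, a log2 fold change of 0.62 (SE 0.151, adjusted p = 0.0965, quasi-likelihood test). GLUT4 is also an adipocyte gene, and its highest values were in the mice with the most adipocyte marker counts, whose part was not tested. *Slc2a9*, a urate transporter, had a log2 fold change of 0.50 (adjusted p = 0.0996) and *Slc2a12* of 0.21 (adjusted p = 0.293, both in the quasi-likelihood test).

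The 32 gluconeogenic partners had a median log2 fold change of -0.11 (0.05 with library size only), and 11 lay below and 5 above both wildtype mice in all 3 *Fnip1* null mice, against 23% and 22.9% of all genes. Lactate and other monocarboxylates enter from the lumen through 2 sodium-coupled carriers, whose values lay on opposite sides of wildtype. *Slc5a8*, the high-affinity carrier, measured 371, 231 and 142 CPM in *Fnip1* null mice 8637, 9210 and 9121, against 607 and 601 in wildtype mice 9055 and 9056. Every *Fnip1* null mouse was well below both wildtype mice, and the log2 fold change was -1.28 (SE 0.357, 95% interval -2.15 to -0.42, adjusted p = 0.111, quasi-likelihood test). The adjusted p of *Slc5a8* was 0.0132 with the exact test of edgeR, 0.00445 with DESeq2 and 0.0097 in the quasi-likelihood test without mouse 8637. In the quasi-likelihood test it was 0.0801 without mouse 9121 (log2 fold change -1.01) and 0.308 without mouse 9210 (log2 fold change -1.24). Without wildtype mouse 9055 or 9056 the log2 fold change was -1.28 or -1.29. *Slc5a12*, the low-affinity carrier, measured 722, 572 and 457 CPM in *Fnip1* null mice against 398 and 356 in wildtype mice, all 3 above both, with a log2 fold change of 0.63 (adjusted p = 0.137, quasi-likelihood test). *Gyk*, the glycerol kinase through which glycerol enters the pathway, measured 808, 534 and 451 against 914 and 1010.4 CPM, a log2 fold change of -0.69 (adjusted p = 0.166, quasi-likelihood test).

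Among 16 tested genes in the list of opposing glycolytic steps, 14 had a positive log2 fold change, as did 7009 of all 13874 genes. The median was 0.26 (0.43 with library size only) against 0 over all genes. The 16 include *Pdk1*, *Pdk2*, *Pdk3* and *Pdk4*, kinases of pyruvate dehydrogenase, which is not a step of glycolysis. *Pdk1*, *Pdk2* and *Pdk4* are among the 14. *Fnip1* null mice were above both wildtype mice for 7 of the 16 genes, *Pdk1* among them, against 22.9% of all genes. They were below both for 2, *Pdk3* among them, against 23% of all genes. *Pfkfb3*, which makes the activator of phosphofructokinase, measured 39.5, 47.2 and 53.7 CPM in *Fnip1* null mice 8637, 9210 and 9121, against 32 and 25.6 in wildtype mice, a log2 fold change of 0.70 (adjusted p = 0.0927, quasi-likelihood test). *Pkm*, the pyruvate kinase of most cells other than hepatocytes and proximal tubule cells, had 376, 485 and 575 CPM against 336 and 299.7, a log2 fold change of 0.59 (adjusted p = 0.136, quasi-likelihood test). *Pdk3*, an inhibitory kinase of pyruvate dehydrogenase, went the other way, with a log2 fold change of -0.68 (adjusted p = 0.0802, quasi-likelihood test). Of 8 leukocyte markers 7 passed the filter. The other, *Cd79a*, had 0 counts in each *Fnip1* null mouse against 12 and 6 in wildtype mice 9055 and 9056. Summed CPM of the 7 tested leukocyte markers was 78.6, 98.3 and 171 in *Fnip1* null mice against 106 and 88.4 in wildtype mice. None of the 7 was at 0, and *Csf1r* was the largest contributor in each mouse. *Csf1r* had a log2 fold change of -0.61 and the other 6 had positive ones (list median 1.43). Of the 7 markers, 4 were above both wildtype mice in all *Fnip1* null mice, against 22.9% of all genes. The part of leukocytes in *Pkm* and *Pfkfb3*, which they express, was not tested.

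The 24 regulators had a median log2 fold change of 0.02 (0.18 with library size only), with 5 above and 3 below both wildtype mice in all *Fnip1* null mice, against 22.9% and 23% of all genes. *Hnf4a*, an activator of proximal tubule genes, overlapped between the groups, with a log2 fold change of -0.33 (adjusted p = 0.39, quasi-likelihood test). *Ppargc1a*, the coactivator of gluconeogenic genes in fasting, had 158, 152 and 128 CPM in *Fnip1* null mice against 122 and 103 in wildtype mice, a log2 fold change of 0.37 (adjusted p = 0.151, quasi-likelihood test). *Irs2*, an insulin receptor substrate, had a log2 fold change of 0.64 (adjusted p = 0.111) and *Txnip*, an inhibitor of glucose uptake, of 0.57 (adjusted p = 0.117, both in the quasi-likelihood test). *Fnip1* null mice were above both wildtype mice in these 3 genes, which for *Irs2* and *Txnip* was a condition of their being named.

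**Figure D4:**
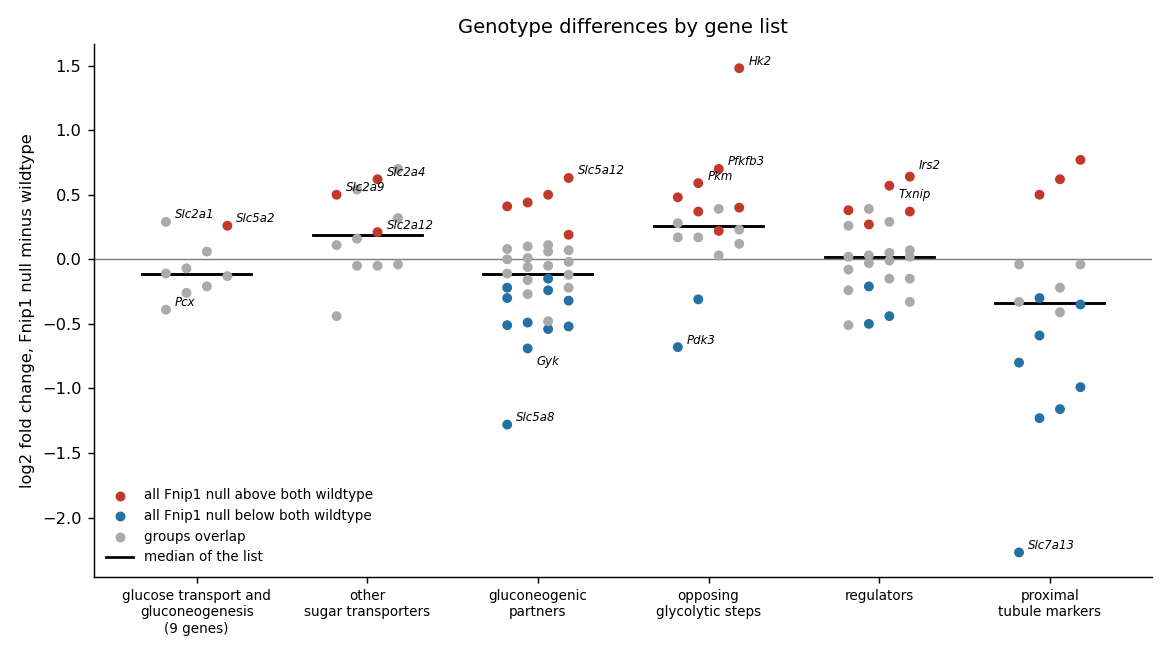
Log2 fold change of each tested gene, *Fnip1* null minus wildtype (vertical axis), by gene list, with TMM scaling and with colours for genes whose *Fnip1* null mice all lie above (red) or below (blue) both wildtype mice. Black lines are list medians, from -0.34 for the proximal tubule markers to 0.26 for the opposing glycolytic steps, and the 9 genes at the left stay between -0.39 and 0.29.

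The proximal tubule itself was followed with 16 marker genes. Their summed CPM was 28611, 21255 and 18239 in *Fnip1* null mice 8637, 9210 and 9121. Wildtype mice 9055 and 9056 had 32412 and 36371, so the sum was lower in every *Fnip1* null mouse. *Acsm2*, *Slc34a1* and *Slc27a2* were its largest contributors in both wildtype mice. *Acsm2* alone measured 6001, 3393 and 1659 CPM in *Fnip1* null mice, against 7076 and 7580.3 in wildtype mice. The median log2 fold change of the 16 markers was -0.34 (-0.19 with library size only), and 13 of 16 were negative. In the quasi-likelihood test, 0 of them passed the FDR of 5% with a 2-fold change. Divided by that sum, a scaling chosen after the values were seen, 7 of the 9 glucose genes were above both wildtype mice in all *Fnip1* null mice, and so were 72.9% of all genes tested, with 74.8% on either side. The share among the 9 was thus near that of all genes. *Slc5a2* had 16.4, 20 and 20 CPM per 1000 CPM of the list in *Fnip1* null mice against 10.5 and 9.88 in wildtype mice.

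Across the 5 mice, the genes most like 4 of the 9 in pattern were found by the root mean square difference of log2 CPM, each gene centred on its own mean, among 13272 other genes with a mean of at least 1 CPM. For *Slc5a2* they were *Dynlt1a*, *Pcdhgb4* and *Mdc1* (differences of 0.03, 0.033 and 0.0367), and for *Slc5a1* they were *Thumpd3*, *Crat* and *Cox16* (0.0131, 0.0168 and 0.024). For *Pck1* they were *Nhlrc1*, *Cyp27a1* and *Ubxn10* (0.0689, 0.0692 and 0.0738), and for *G6pc* *Bmp8a*, *C330013J21Rik* and *Dnah5* (0.141, 0.165 and 0.171). The gluconeogenic genes were not each other's nearest neighbours: *Pcx*, of the 9 the closest to *Pck1*, ranked 529 at a difference of 0.189. *Slc37a4* and *Pcx* were closer, at 0.115, as were *Slc5a1* and *Fbp1*, at 0.051. Many other genes were closer still: *Slc37a4* ranked 156 for *Pcx*, and *Pcx* ranked 108 for *Slc37a4*. *Fbp1* ranked 132 for *Slc5a1*, and *Slc5a1* ranked 198 for *Fbp1*.

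Reads from exons of genes that overlap cannot be told apart without strand, and the strand setting of the counting is not given in the sources used here. Overlaps were taken between whole genes, introns included, and whether exons overlap was not examined. In GENCODE M21, *Slc5a2* overlaps *BC017158* on the opposite strand by 1052 bases, *Slc2a2* lies across the antisense gene *1700112D23Rik*, and *Slc2a1* spans the antisense genes *Gm12867* and *Gm12868*. *Lrfn4* lies on the opposite strand within *Pcx*, and *Slc5a1* spans 2 processed pseudogenes. *Slc2a1* and *Slc37a4* each also hold a miRNA gene on their own strand. *Pck1*, *Fbp1* and *G6pc* overlap no other gene in that annotation.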

How the data were processed

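RNAseq libraries were made from cortical kidney RNA of 3 *Fnip1* null and 2 wildtype mice. After a quality filter, the authors aligned reads to mm10 (TopHat2 2.1.0 in the submitters' processing notes) and used HTSeq 0.6.1 to count reads for each gene symbol. The deposited values are whole-number counts without normalization. Rows for reads without a gene (9.91% to 10.8% of all rows' counts), ambiguous reads (0.741% to 0.803%) and reads aligned to more than 1 place (28.3% to 31.4%) were left out.

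In R 4.3.3, a gene was removed if over 2 of the 5 mice had under 10 counts, libraries were scaled by TMM, and all 13874 genes were fitted together with the quasi-likelihood test of edgeR 4.0.16, with Benjamini-Hochberg adjustment over all of them. SE is the log2 fold change divided by the square root of its F statistic, and the 95% interval uses the t quantile of the same fit. Replicates are separate mice. Alternatives were DESeq2 1.42.0, the exact test, the likelihood ratio test, RLE factors, the legacy version of the main fit, library size only, other filters and thresholds, and leaving out each mouse. The fit was tested on simulated data.

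The 9 genes, the lists and the tests were chosen with earlier results of these data known. Named are all 9 genes, *Fnip1*, preset partners (*Pck2*, *G6pc3*, *Pdzk1ip1*, *Hnf4a*, *Ppargc1a*) and, where no gene of a pathway list passed the test, its 3 largest fold changes among genes with a mean of at least 1 CPM whose groups did not overlap. A gene that the rule also named is not reported here. Coordinates are those of GENCODE M21 (GRCm38, the assembly of mm10), matched by symbol. The number of mouse 9210 is that of its label, and its deposited file carries the same digits with the middle pair in the other order, a conflict that could not be settled here. In each mouse, 3 counts correspond to 0.158 to 0.186 CPM.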

Additional observations from a re-analysis of the deposited data

How the results depend on the processing

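The count of differentially expressed genes among the 9 glucose genes was 0 with all mice and in each of 15 alternative settings, although the count over all genes ran from 0 to 963. Leaving out mouse 9055 or 9056 leaves 1 wildtype mouse, which is then assumed to vary like the other genotype. Among the pathway genes the count was 2 with the exact test, 2 with the likelihood ratio test and 1 with DESeq2 (4.11%, 4.53% and 3.51% of all genes), and 0 to 3 with 1 mouse left out. The 3 were *Slc5a8*, *Hk2* and *Slc2a6* without mouse 8637 (6.82% of all genes). Without mouse 9121, log2 fold changes were 0.58 for *Slc2a4*, 0.78 for *Slc5a12*, -0.52 for *Gyk* and 0.59 for *Pfkfb3*. In the same fit they were 0.44 for *Pkm*, -0.64 for *Pdk3*, 0.69 for *Irs2* and 0.55 for *Txnip*. Genes whose groups did not overlap numbered 2 of the 9 with library size only (*Slc5a2* and *Slc2a2*), against 48.6% of all genes. With the added scaling to the proximal tubule list they numbered 7 of the 9, against 74.8% of all genes. With library size only, the signs of *Slc5a1* (0.09), *Fbp1* (0.03) and *G6pc* (0.06) reversed, by the shift of all genes. With 1 mouse left out, log2 fold changes ran from -0.15 to 0 for *Slc5a1*, -0.03 to 0.13 for *Slc2a2* and -0.52 to 0.46 for *G6pc*, crossing or reaching 0. The ratio *Slc2a2*/*Slc2a1* ran from -0.51 to 0.06 and *G6pc*/*G6pc3* from -0.24 to 0.55. *Fnip1* kept its direction in all 13 refits, from -1.61 to -1.33, and missed the FDR of 5% without mouse 9210, 9055 or 9056 (adjusted p = 0.122, 0.216 and 0.508, quasi-likelihood test). No paired analysis was possible because the mice share no replicate numbers.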

Other observations

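Of the 16 proximal tubule markers, 3 had a positive log2 fold change and 13 a negative one. *Slc7a8* and *Slc7a7*, amino acid exchangers of the blood side, and *Gatm*, the first enzyme of creatine synthesis, had log2 fold changes of 0.77, 0.50 and 0.62 (adjusted p = 0.0644, 0.0903 and 0.0914, quasi-likelihood test of edgeR). *Gatm* measured 1175, 1317 and 1119.8 CPM in *Fnip1* null mice 8637, 9210 and 9121, against 809 and 757 in wildtype mice 9055 and 9056, with no overlap between the groups. The lowest log2 fold change of the list was that of another amino acid carrier. *Slc7a13*, a carrier of the last part of the proximal tubule, measured 600.2, 202 and 4.17 CPM in *Fnip1* null mice against 1206 and 1377 in wildtype mice. Its lowest value was in mouse 9121, the mouse with *Xist* counts, and its log2 fold change of -2.27 had an adjusted p of 0.347 in the quasi-likelihood test. *Khk* and *Tkfc*, which metabolise fructose, were lower in all 3 *Fnip1* null mice, with log2 fold changes of -0.54 and -0.51 (adjusted p = 0.0903 and 0.12, quasi-likelihood test), while the fructose carrier *Slc2a5* overlapped between the groups. These genes were chosen after their values were seen.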
